A study of Homo sapiens with 6 samples.

Results

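The miR-183 cluster is a group of 3 microRNA hairpins, MIR183, MIR96 and MIR182, that lie next to each other on human chromosome 7. Its members here are the mature miRNAs hsa-miR-182-5p, hsa-miR-183-5p, hsa-miR-183-3p and hsa-miR-96-5p, chosen by their names in the tables of known mature miRNAs, 4 of the 1727 known names read in any library. All 4 were read in every library, and all 4 passed the filter on low counts. The study read small RNA in 6 libraries of the human bronchial epithelial line BEAS-2B, an immortalised established cell line. For 3 libraries the cells had received a plasmid that expresses PRMT1, a protein arginine methyltransferase (pcDNA-PRMT1), and for the other 3 (control) pcDNA3.1 without an insert, in each case for 48 h. Both groups thus carry the vector, and the tables hold no measure of PRMT1 itself with which its over-expression could be checked. Separate cultures are not stated for the replicates, and the p-values therefore speak of the spread among these libraries alone, part of which may be technical.

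A microRNA cluster of this kind is read as a single primary transcript, which DROSHA and DICER cut into hairpins and then into short duplexes. One strand of each duplex, the guide, is loaded into an Argonaute protein and represses messenger RNAs that pair with its seed, while the other, the passenger, is mostly degraded. The cluster is best known from sensory organs, where it is abundant in photoreceptors and hair cells and where mutations in the seed of miR-96 cause hearing loss. In epithelia it is raised in many carcinomas, including those of the lung, and the transcription factor ZEB1 represses miR-183 together with the miR-200 family. FOXO1 is a known target of both miR-96-5p and miR-182-5p.

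The hairpins spanned 4632 bases of the minus strand of chromosome 7, from 129770383 to 129775014 (GRCh38, GENCODE release 29). MIR183 comes first in the direction of transcription (chr7:129774905-129775014), followed after 135 bases by MIR96 (chr7:129774692-129774769) and after a further 4199 bases by MIR182 (chr7:129770383-129770492). GENCODE places no other gene over the hairpins. The nearest are the protein-coding gene NRF1 on the opposite strand, whose annotated end is 13301 bases away, and the long non-coding gene AC084864.1 on the same strand, 8356 bases upstream of MIR183. The build of the submitters' processing notes is GRCh37.p13, and the positions here come from GRCh38 alone.

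The mature arms are shown 5′ to 3′ with the seed (bases 2 to 8) in capitals, because the 3 guides are near relatives and their seeds decide which targets they share. Sequences are from RefSeq on GRCh38.p14, where 6 of the 6 arms of these hairpins were found, and all lie on the minus strand.
miR-183-5p, guide, chr7:129774967-129774988: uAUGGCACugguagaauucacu
miR-96-5p, guide, chr7:129774739-129774761: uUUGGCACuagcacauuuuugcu
miR-182-5p, guide, chr7:129770447-129770470: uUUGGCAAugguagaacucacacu
miR-183-3p, passenger, chr7:129774928-129774949: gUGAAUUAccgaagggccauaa
The seeds of miR-183-5p and miR-96-5p have 6 of 7 bases in common, those of miR-96-5p and miR-182-5p also 6 of 7, and those of miR-183-5p and miR-182-5p 5 of 7. Over their whole length miR-183-5p and miR-182-5p are the closest pair, with 18 of 22 bases the same when aligned at the 5′ end, against 13 of 22 for miR-183-5p and miR-96-5p and 12 of 23 for miR-96-5p and miR-182-5p. No other mature name in RefSeq came closer to miR-183-5p or miR-182-5p than the 4 mismatches that separate them. The nearest names to miR-96-5p and to miR-183-3p had 6 mismatches. In this search mismatches were counted over the overlap only, of at least 16 bases, with shifts of up to 3 bases allowed. How reads that match several names were counted is not stated in the labels or files.

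The deposited counts are whole reads per small RNA, and totals ran from 23.95 M to 25.79 M reads per library in PRMT1 cells and from 24.01 M to 25.09 M in control cells. Reads of known mature miRNAs were 11.91 M to 14.43 M of these in PRMT1 and 11.54 M to 16.42 M in control libraries. Levels are given as CPM, counts per 1000000 known miRNA reads after TMM scaling, and the mature arms are 21 to 24 bases long, so no length correction was made when they were compared. In control library 2, miR-21-5p took 66.0% of the reads of known miRNAs, against 49.4% to 59.1% in the other 5 libraries, and its TMM factor was 0.761 against 0.986 to 1.11. Fold changes of the cluster's arms and precursor rows without this library are given beside the main ones.

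The most abundant member, hsa-miR-182-5p, a repressor of FOXO1, had 3131, 4627 and 2856 CPM in PRMT1 libraries 1 to 3, against 3759, 5048 and 4532 CPM in control libraries 1 to 3. PRMT1 library 2 lay inside the control range, the other PRMT1 libraries lay below it, and the groups overlapped. The means were 3538 ± 953 CPM in PRMT1 and 4446 ± 649 CPM in control cells (SD, n = 3 each). The log2 fold change was -0.33 (SE 0.22, 95% interval -0.83 to 0.17), which did not pass edgeR's quasi-likelihood test (adjusted p = 0.773). Leaving out PRMT1 library 2 gave -0.60 with an unadjusted edgeR p of 0.0181 and an adjusted p of 0.419. In that setting 7.2% of names (50 of 694) had an unadjusted p under 0.05. Leaving out PRMT1 library 3 gave -0.20, and leaving out control library 2 gave -0.25.

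The guide of the first hairpin, hsa-miR-183-5p, had 1712, 1861 and 1521 CPM in PRMT1 libraries, against 1890, 2144 and 1758 CPM in control libraries. PRMT1 library 2 again lay within the control range, so the groups overlapped. Its means were 1698 ± 170 CPM in PRMT1 and 1931 ± 196 CPM in control cells (SD, n = 3 each). Its log2 fold change of -0.19 (SE 0.18, 95% interval -0.60 to 0.23) did not pass (edgeR adjusted p = 0.845). It was -0.12 without control library 2, the same as without PRMT1 library 3.

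The guide of the middle hairpin and the member tied to inherited deafness, hsa-miR-96-5p, had 1448, 1217 and 1029 CPM in PRMT1 libraries, against 798, 1151 and 1936 CPM in control libraries. The control libraries held both the lowest and the highest value, and the PRMT1 libraries fell between them. Means were 1232 ± 210 CPM in PRMT1 and 1295 ± 583 CPM in control cells (SD, n = 3 each). The log2 fold change was -0.07 (SE 0.31, 95% interval -0.78 to 0.63; edgeR adjusted p = 0.983). Its sign rested on single libraries, since leaving out control library 3 gave 0.29 and leaving out PRMT1 library 3 gave 0.04. It was -0.34 when control library 1 was omitted and -0.16 when control library 2 was.

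The passenger of miR-183-5p, hsa-miR-183-3p, was a minor species with 18.9, 15.4 and 18.8 CPM in PRMT1 libraries, against 19.7, 16.3 and 16.6 CPM in control libraries. These values rested on 187 to 291 reads per library. Both groups covered nearly the same range, with means of 17.7 ± 2.02 CPM in PRMT1 and 17.6 ± 1.89 CPM in control cells (SD, n = 3 each). The log2 fold change was 0.01 (SE 0.25, 95% interval -0.54 to 0.56; edgeR adjusted p = 0.991), and its sign changed with the scaling (-0.04 with RLE factors) and without control library 2 (-0.06).

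**Figure D1:**
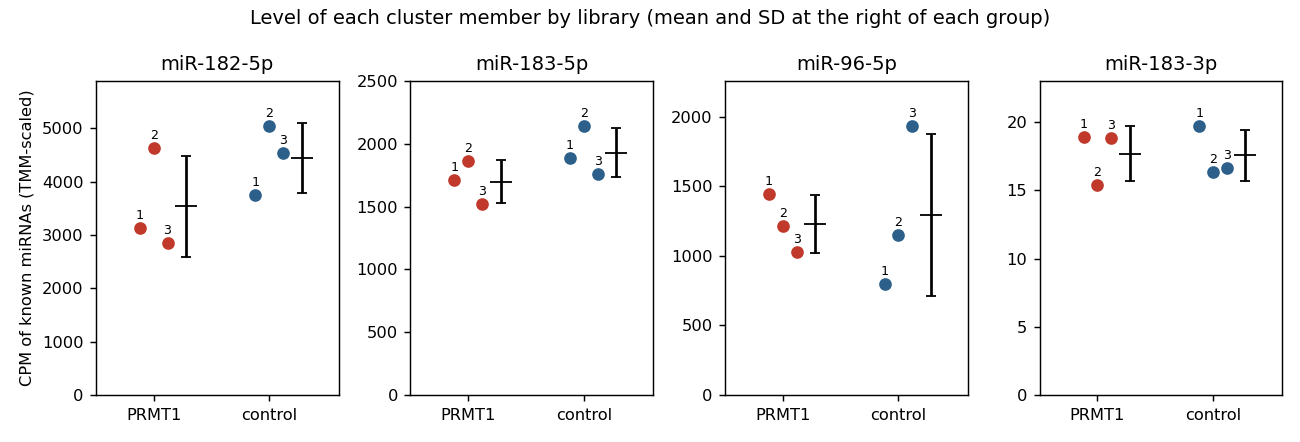
Level of each cluster member in CPM of known miRNAs (linear axes from 0), with PRMT1 libraries in red and control libraries in blue; numbers are replicates, and the bar at the right of each group is the mean ± SD (n = 3). The groups overlap for every member, and miR-96-5p has the highest ratio of its largest to its smallest value, with 798 to 1936 CPM within control.

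The hairpins' remaining arms, both passengers, were rarer still. MiR-182-3p had 196, 86 and 192 reads in PRMT1 libraries, against 113, 121 and 129 reads in control libraries. PRMT1 libraries 1 and 3 were above every control library and PRMT1 library 2 was below every one. Its log2 fold change was 0.36 (SE 0.34, edgeR adjusted p = 0.836), 0.08 on omission of PRMT1 library 3 and 0.37 on omission of control library 2. MiR-96-3p had 44, 25 and 32 reads in PRMT1 libraries, against 36, 38 and 38 in control libraries (log2 fold change -0.18, SE 0.31, edgeR adjusted p = 0.931; -0.16 when control library 2 was omitted).

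None of the 6 arms passed the threshold, a Benjamini-Hochberg adjusted p of 0.05 over all 668 tested names. That share has to be read against a background of 0% of tested names called, 0 of 668 by edgeR. At an unadjusted p under 0.05 the background was 5.39% of names (36 of 668), and 0 of the 6 arms were among them. DESeq2 called 4 names and limma-voom 0, none of them an arm of the cluster. The groups did not overlap in 10.2% of tested names (68 of 668), and in 0 of the 6 arms. Of the 6 arms, 4 had a log2 fold change below 0, with a median of -0.13, beside 308 of all 668 names below 0 and a median of 0.04. Between 1 and 2 of the arms lay above 0 under the scalings tried.

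**Figure D2:**
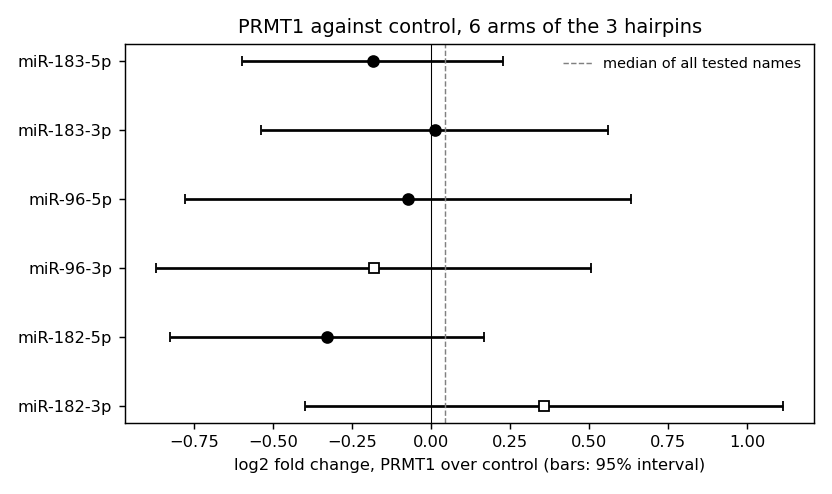
Log2 fold change of PRMT1 over control for the 6 mature arms of the 3 hairpins, with 95% intervals from the edgeR fit; filled circles are the 4 members, open squares the other 2 passengers, and the dashed line is the median of all 668 tested names (0.04). Every interval includes 0, from -0.33 for miR-182-5p to 0.36 for miR-182-3p.

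Summed over the 4 members, the cluster took 0.673%, 0.789% and 0.535% of known miRNA reads in PRMT1 libraries, against 0.711%, 0.636% and 0.918% in control libraries. Wilson 95% intervals were narrow, 0.531% to 0.539% for the lowest library and 0.913% to 0.924% for the highest, and cover counting error only. On the TMM scale the sum was 6311, 7720 and 5424 CPM in PRMT1, against 6466, 8359 and 8242 CPM in control libraries. The order of the control libraries differed between these measures, as control library 2 had the lowest share and the highest scaled level. With miR-21-5p left out of the total, the cluster held 1.27% to 1.93% of the remaining reads in PRMT1 and 1.52% to 1.87% in control libraries. The group means of the scaled sum were 6485 ± 1158 CPM in PRMT1 and 7689 ± 1061 CPM in control cells (SD, n = 3 each), a log2 ratio of -0.25, which is given without a test and was -0.18 when control library 2 was left out. In bulk libraries such as these, fewer cells that express the cluster and fewer copies per cell cannot be told apart.

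The order of the members was miR-182-5p, then miR-183-5p, then miR-96-5p, then miR-183-3p in 5 of the 6 libraries. In control library 3, miR-96-5p stood above miR-183-5p. Ranked among the 1727 known names within a library, miR-182-5p was at 25 to 33, miR-183-5p at 44 to 51, miR-96-5p at 44 to 69 and miR-183-3p at 267 to 292. The lowest value of miR-182-5p, 2856 CPM, lay above the highest of miR-183-5p, 2144 CPM, while the ranges of miR-183-5p (1521 to 2144 CPM) and miR-96-5p (798 to 1936 CPM) overlapped. MiR-182-5p made up 49.6%, 59.9% and 52.6% of the members' summed reads in PRMT1 libraries, against 58.1%, 60.4% and 55.0% in control libraries.

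The 3 hairpins come from a single transcript, and their members were also compared with each other within each library. Reads of one member per 100 reads of another, taken within a library, do not depend on any scaling. MiR-183-5p had 54.7, 40.2 and 53.3 reads per 100 of miR-182-5p in PRMT1 libraries, against 50.3, 42.5 and 38.8 in control libraries. This ratio moved little, 1.41-fold between the highest and the lowest library. MiR-96-5p had 46.3, 26.3 and 36.0 reads per 100 of miR-182-5p in PRMT1 libraries, against 21.2, 22.8 and 42.7 in control libraries. It moved 2.18-fold, with PRMT1 library 1 and control library 3 at the top, so the high libraries fell in both groups. MiR-183-3p had 1.11, 0.826 and 1.24 reads per 100 of its guide miR-183-5p in PRMT1 libraries, against 1.04, 0.761 and 0.947 in control libraries.

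All 3 ratios had a higher mean in PRMT1 libraries, and in none did the groups separate. On the log2 scale the PRMT1 mean exceeded the control mean by 0.17 for miR-183-5p to miR-182-5p (-1.03 ± 0.25 and -1.20 ± 0.19, SD), with a two-sided exact permutation p of 0.3. The difference was 0.36 for miR-96-5p to miR-182-5p (-1.50 ± 0.41 and -1.87 ± 0.56, SD), with an exact permutation p of 0.4. It was 0.20 for miR-183-3p to miR-183-5p (-6.58 ± 0.30 and -6.78 ± 0.23, SD), also with an exact permutation p of 0.4. Adjusted over the 3 ratios each p was 0.4 by the exact permutation test, and 3 libraries against 3 cannot give a p below 0.1. Without control library 3 the difference for miR-96-5p to miR-182-5p was 0.68, and without PRMT1 library 1 it was 0.17. Without control library 2 the 3 differences were 0.15, 0.23 and 0.07.

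**Figure D3:**
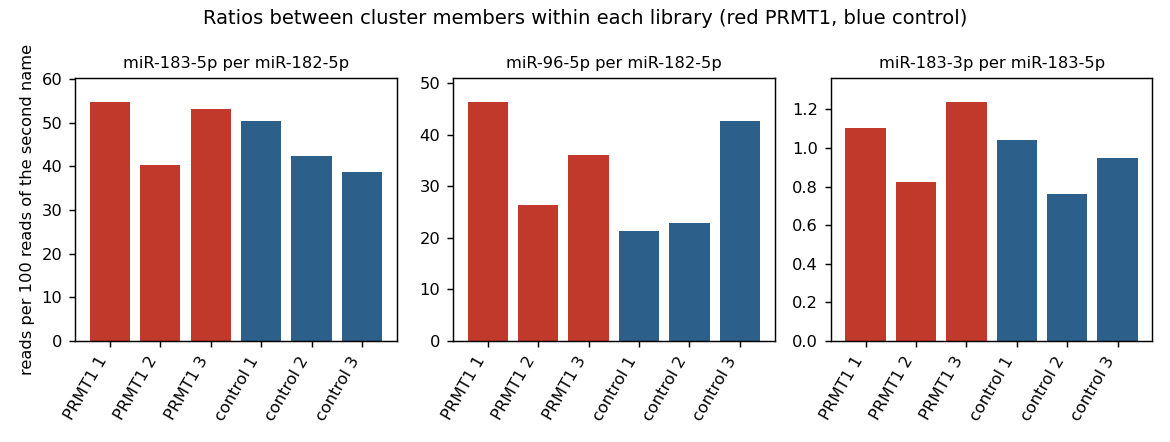
Reads of one member per 100 reads of another within each library (bars from 0; PRMT1 in red, control in blue). MiR-183-5p per miR-182-5p stays between 38.8 and 54.7, while miR-96-5p per miR-182-5p runs from 21.2 to 46.3 with high libraries in both groups.

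Passenger strands were scarce at all 3 hairpins. There were 7.61 to 12.4 reads of miR-183-3p per 1000 of miR-183-5p, 1.53 to 5.62 of miR-182-3p per 1000 of miR-182-5p and 1.53 to 3.31 of miR-96-3p per 1000 of miR-96-5p over the 6 libraries. For the MIR182 arms the values were 4.07, 1.53 and 5.62 per 1000 in PRMT1, against 2.21, 1.92 and 2.21 per 1000 in control libraries. The control libraries were close to one another, and the PRMT1 libraries held both the lowest and the highest value.

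Co-variation was measured as the correlation of log2 CPM over the 6 libraries, for the 6 pairs of members, with exact permutation p-values. MiR-182-5p and miR-183-5p had the highest coefficient, with Pearson r = 0.83 (exact permutation p = 0.0306, adjusted p = 0.183 over the 6 pairs) and Spearman rho = 0.83 (exact permutation p = 0.0583, adjusted p = 0.35). It did not pass the correction, and without the 2 libraries farthest from the median of miR-182-5p, PRMT1 libraries 1 and 3, r was 0.44. That omission also narrows the range of miR-182-5p, so it cannot show whether the relation rests on those libraries. As deviations from the group means the pair had r = 0.73, and as CPM of all small RNA classes 0.67.

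MiR-96-5p had low coefficients with both other guides. Its r was 0.24 with miR-182-5p (exact permutation p = 0.64, adjusted p = 0.768), with rho = 0.20 (exact permutation p = 0.714, adjusted p = 0.714). With miR-183-5p, whose hairpin is only 135 bases away, r was -0.13 (exact permutation p = 0.84, adjusted p = 0.84) and rho -0.26 (exact permutation p = 0.658, adjusted p = 0.714). Without PRMT1 libraries 1 and 3, the farthest from the median of miR-182-5p, r with miR-182-5p was 0.54. Without PRMT1 library 3 and control library 2, the farthest from the median of miR-183-5p, r with miR-183-5p was -0.79. Neither coefficient is thus stable at this number of libraries.

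MiR-183-3p had an r of -0.80 with miR-182-5p (exact permutation p = 0.0778, adjusted p = 0.233) and rho = -0.71 (exact permutation p = 0.136, adjusted p = 0.408). As CPM of all classes this r was -0.30, and -0.87 without PRMT1 libraries 1 and 3. As deviations from the group means it was -0.95, a value given without a test. With its own guide miR-183-5p, miR-183-3p had r = -0.45 (exact permutation p = 0.382, adjusted p = 0.573) and rho = -0.26 (exact permutation p = 0.658, adjusted p = 0.714), and r was -0.07 without PRMT1 library 3 and control library 2. On the scale of all classes the sign of that r was reversed, at 0.42. Its r with miR-96-5p was -0.46 (exact permutation p = 0.369, adjusted p = 0.573) and rho -0.37 (exact permutation p = 0.497, adjusted p = 0.714), with r = -0.32 without PRMT1 library 2 and control library 1 and 0.17 as CPM of all classes.

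**Figure D4:**
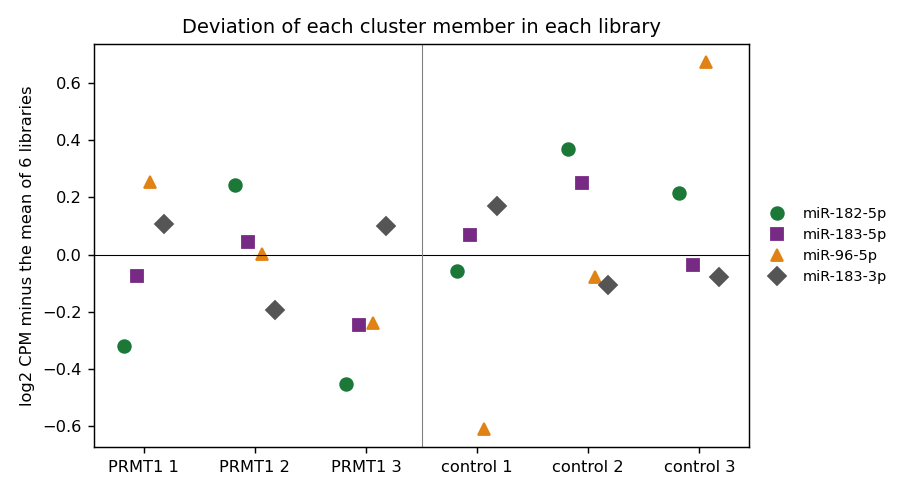
Deviation of each member's log2 CPM from its mean over the 6 libraries (PRMT1 libraries left, control right). MiR-182-5p and miR-183-5p lie on the same side of 0 in 4 of the 6 libraries, while miR-96-5p runs from -0.61 in control library 1 to 0.67 in control library 3.

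For scale, the same was computed over all 12561 pairs of the 159 names with a mean of at least 100 CPM, which share libraries, depth and scaling. The median r over these pairs was 0.01, and 3.78% had a higher r than miR-182-5p with miR-183-5p, 34.5% than miR-182-5p with miR-96-5p and 59.3% than miR-183-5p with miR-96-5p. The log2 ratio of miR-183-5p to miR-182-5p had an SD of 0.22 over the 6 libraries, beside a median of 0.47 over all pairs. That of miR-96-5p to miR-182-5p was 0.48. For comparison, in the miR-200 cluster, which shares repression by ZEB1, the SD of the log2 ratio was 0.21 for miR-200a-3p to miR-200b-3p, 0.32 for miR-200a-3p to miR-429 and 0.38 for miR-200b-3p to miR-429. In the same order, r for these miR-200 pairs was 0.59, -0.06 and -0.17. These are descriptions, and the difference between the clusters was not tested.

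Taken singly, the members spread over the libraries to different degrees. The SD of log2 CPM over the 6 libraries was 0.17 for miR-183-5p, 0.33 for miR-182-5p and 0.44 for miR-96-5p, beside a median of 0.30 over the 159 names. Of these names, 15 had a smaller SD than miR-183-5p, 95 a smaller one than miR-182-5p and 118 a smaller one than miR-96-5p.

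Reads assigned to precursor families rather than to mature names gave a further readout of the same hairpins. The mir-183 precursor row held 1554, 1509 and 1174 reads in PRMT1 libraries, against 1481, 1732 and 1326 reads in control libraries. Per 100 reads of miR-183-5p it stayed between 5.75 and 6.67. The mir-182 precursor row held 4079, 3293 and 2412 reads in PRMT1 libraries, against 3683, 3986 and 3180 reads in control libraries, or 5.46 to 8.47 per 100 reads of miR-182-5p. In both rows the 6 libraries had similar proportions.

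The mir-96 precursor row moved over a wider range. It held 605, 130 and 654 reads in PRMT1 libraries, against 67, 528 and 97 reads in control libraries, a 9.76-fold span. PRMT1 libraries 1 and 3 and control library 2 were high and the other 3 low, so the high libraries came from both groups. Per 100 reads of miR-96-5p the row had 2.72, 0.878 and 5.31 reads in PRMT1 libraries, against 0.616, 3.67 and 0.390 in control libraries. Control library 3, with the most miR-96-5p, had the fewest precursor reads per mature read. Of the 52 precursor rows with a mean of at least 100 reads, 3 had a wider span than this row, and the median span was 1.73-fold.

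In a fit over rows of all classes, 0 of 1730 rows were called by edgeR at an adjusted p of 0.05, a background of 0%, and 64 had an unadjusted p under 0.05. The log2 fold change of the mir-96 row was 0.78 (SE 0.999, 95% interval -1.63 to 3.19, edgeR adjusted p = 0.997). When control library 2, the high control library of this row, was left out, it was 2.49 (SE 0.81), with an unadjusted edgeR p of 0.0275 and an adjusted p of 0.863. This omission was chosen for the row after its values were seen. Among known mature names, 60 of 705 had an unadjusted edgeR p under 0.05 without that library. The mir-183 row had -0.26 (SE 0.26) and the mir-182 row -0.32 (SE 0.26), both with an edgeR adjusted p of 0.997, and these were 0.01 and -0.08 without control library 2. How reads were divided between mature names and precursor rows is not stated in the labels or files.

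**Figure D5:**
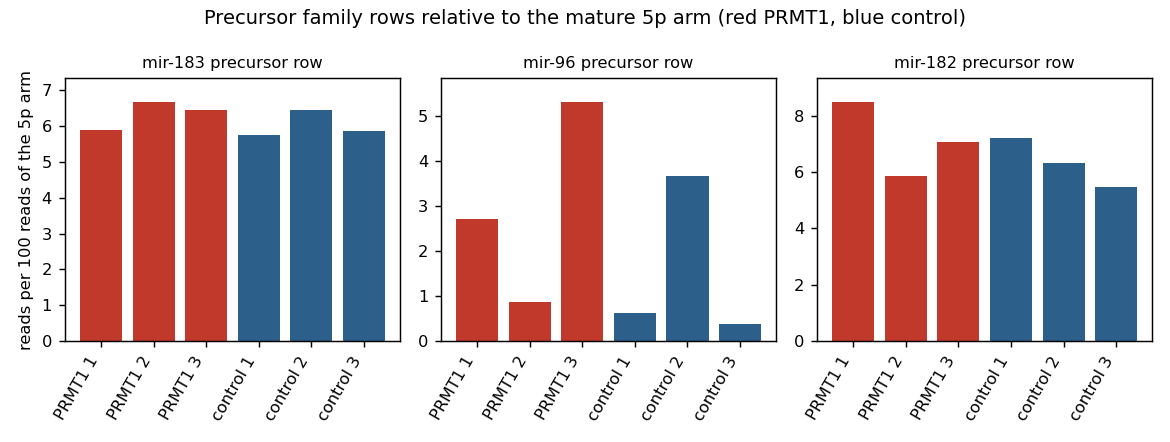
Reads of each precursor family row per 100 reads of the mature 5p arm in each library (bars from 0; PRMT1 in red, control in blue). The mir-183 row stays between 5.75 and 6.67 and the mir-182 row between 5.46 and 8.47, whereas the mir-96 row runs from 0.390 to 5.31 with high libraries in both groups.

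The only other human miRNA in RefSeq with the seed of a member was miR-1271-5p, which carries that of miR-96-5p (chr5:176367960-176367981, plus strand, GRCh38.p14). It is shown to let the shared seed be seen beside the different rest of the molecule.
miR-1271-5p: cUUGGCACcuagcaagcacuca
It had 15, 19 and 14 reads in PRMT1 libraries, against 9, 6 and 11 reads in control libraries, so miR-96-5p supplied nearly all reads with this seed. The groups did not overlap, as in 10.2% of all tested names, and the log2 fold change of 0.87 (SE 0.42) did not pass (edgeR adjusted p = 0.741).

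Other miRNAs reported to target FOXO1 were followed as a list of 6, of which 5 were tested. None passed, 3 lay above and 2 below 0, and the median log2 fold change was 0.29, beside 0.04 over all names. The most abundant was miR-27a-3p, known to repress FOXO1 together with miR-96-5p and miR-182-5p in breast cancer cells, at 21124 ± 11368 CPM in PRMT1 and 17252 ± 4928 CPM in control cells (SD, n = 3 each). Its log2 fold change was 0.29 (SE 0.49, edgeR adjusted p = 0.931), and over the omission of single libraries it ran from -0.11 to 0.63. MiR-27b-3p (log2 fold change -0.06, SE 0.26), miR-139-5p (-0.33, SE 0.29) and miR-135a-5p (0.40, SE 0.30) also did not pass. MiR-223-3p, a myeloid miRNA, had too few reads to be tested.

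The neighbours of the cluster on chromosome 7 formed a list of 10 names, of which 7 were tested and none passed. All 7 lay above 0, with a median log2 fold change of 0.28, beside 360 of all 668 names above 0. Between 5 and 7 of them did so under the scalings tried, and 4 of the 7 had a value below 0 when one or another library was left out. Their signs are not independent, since miR-335 and miR-29a each gave both arms to the tested names. The list includes miR-335, 0.721 Mb from the cluster, and miR-29a with miR-29b-1, 1.10 Mb away. MiR-29a-3p, which restrains collagen genes, averaged 9663 ± 2216 CPM in PRMT1 and 7014 ± 2083 CPM in control cells (SD, n = 3 each), a log2 fold change of 0.46 (SE 0.24, edgeR adjusted p = 0.741) that ran from 0.24 to 0.71 when a library was left out. MiR-29b-3p was at 0.34 (SE 0.31), miR-29b-1-5p at 0.05 (SE 0.25) and miR-129-5p at 0.17 (SE 0.28). Each of miR-29b-3p and miR-129-5p also comes from a hairpin on another chromosome, so their reads cannot be assigned to this one. Of the other 3 names, miR-593-3p and miR-593-5p were listed in no library and miR-129-1-3p had too few reads.

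The epithelial label of the cells was set beside 7 miRNAs, the miR-200 family, miR-203a-3p and miR-205-5p. All were detected, but only miR-200a-3p, miR-200b-3p and miR-429 reached the level of the cluster's guides. The 7 names summed to 7998 to 8874 CPM in PRMT1 and 7745 to 10085 CPM in control libraries. Of the 7, 0 passed, with 4 above and 3 below 0. MiR-200a-3p, at 4016 ± 366 CPM in PRMT1 and 4000 ± 707 CPM in control cells (SD, n = 3 each), stood beside miR-182-5p in level. The others with the highest level were miR-429 (log2 fold change -0.28, SE 0.20), miR-200b-3p (-0.12, SE 0.22) and miR-200c-3p (-0.04, SE 0.25). Of these, miR-200c-3p was far lower, at 47.6 ± 6.35 CPM in PRMT1 and 49.0 ± 11.2 CPM in control cells (SD, n = 3 each). The groups did not overlap for miR-429, as in 10.2% of all tested names. Of the less abundant members, miR-141-3p was at 0.14 (SE 0.31) and miR-203a-3p, a miRNA of the skin, at 0.15 (SE 0.32). Their mean levels were 21.4 and 3.43 CPM in PRMT1 and 19.4 and 3.09 CPM in control cells. Both, like miR-205-5p, lay below miR-143-3p, a marker of fibroblasts and smooth muscle, at 29.2 CPM in PRMT1 and 25.8 CPM in control cells. MiR-205-5p, a miRNA of basal epithelial cells, had 135, 106 and 75 reads in PRMT1 libraries, against 83, 56 and 50 reads in control libraries. Its scaled levels, 7.92 ± 1.43 CPM in PRMT1 and 4.82 ± 1.14 CPM in control cells (SD, n = 3 each), also did not overlap. The groups were thus apart for 2 of the 7 names, beside 68 of all 668. MiR-205-5p was the 1 name of the 7 with an unadjusted edgeR p under 0.05, beside 36 of all 668 (5.39%). Its log2 fold change was 0.72 (SE 0.31, edgeR unadjusted p = 0.0449, adjusted p = 0.741), and ran from 0.52 to 0.91 when a library was left out.

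Markers of fibroblasts, smooth muscle and blood were low beside the guides of the cluster. The 4 fibroblast and smooth muscle names summed to 23.7 to 36.6 CPM in PRMT1 and 23.8 to 32.9 CPM in control libraries, and the 5 blood names to 72.7 to 98.9 CPM in PRMT1 and 75.2 to 131 CPM in control libraries. Neither list had a member that passed, of 2 and 3 tested. Their median log2 fold changes were 0.52 and 0.79, beside 0.04 over all names, with 2 of 2 and 2 of 3 tested names above 0. In each list the groups did not overlap for 1 member, miR-145-5p and miR-150-5p, beside 10.2% of all tested names (68 of 668). MiR-145-5p, at 0.85 (SE 0.40), rested on 16, 24 and 16 reads in PRMT1 libraries, against 10, 11 and 10 reads in control libraries. The other tested name of its list, miR-143-3p, was at 0.18 (SE 0.27). The blood name of highest level, miR-486-5p, lay below 0, at -0.43 (SE 0.33). It averaged 61.7 ± 17.0 CPM in PRMT1 and 83.3 ± 33.4 CPM in control cells (SD, n = 3 each). The 6 sensory and neural names were chosen because the cluster is a sensory one. They summed to 568 to 2747 CPM in PRMT1 and 368 to 2303 CPM in control libraries. Beside them, miR-96-5p ran from 798 to 1936 CPM, so the sum came to the level of a guide in some libraries only. Their 5 tested members did not pass, with a median log2 fold change of 0.39 and 4 to 5 of them above 0 under the scalings tried, and 4 of the 5 had a value below 0 when one or another library was left out. In 5 of the 6 libraries most of the list's reads were of miR-7-5p, a neuroendocrine miRNA also present in many epithelia, and in control library 1 it took 32.5% of them. Its level was 1204 ± 1051 CPM in PRMT1 and 830 ± 1040 CPM in control cells (SD, n = 3 each). The retinal miR-211-5p had at most 3 reads in any library, and miR-124-3p averaged 23.3 ± 16.3 CPM in PRMT1 and 13.6 ± 1.60 CPM in control cells (SD, n = 3 each).

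The miRNAs whose level over the 6 libraries was most like that of the summed cluster were taken from the 156 other names of at least 100 CPM, by Pearson r of log2 CPM as a description. They were miR-155-5p (r = 0.90), miR-320a-3p (0.82), miR-17-5p (0.77), miR-30d-5p (0.74) and miR-935 (0.64). MiR-155-5p, an inflammatory miRNA, had 208, 221 and 192 CPM in PRMT1 libraries, against 190, 238 and 247 CPM in control libraries. MiR-320a-3p, which is made without DROSHA, had 2324, 3319 and 1860 CPM in PRMT1 libraries, against 3282, 2977 and 3599 CPM in control libraries. Like miR-182-5p, both had their lowest PRMT1 value in library 3. None of the 5 passed the test between groups, with log2 fold changes from -0.39 for miR-320a-3p to 0.07 for miR-30d-5p.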

How the data were processed

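Small RNA of BEAS-2B cells was read in 3 PRMT1 and 3 control libraries, grouped by their titles. Per the labels' protocols, messenger RNA was selected or ribosomal RNA removed from total RNA, steps not specific to small RNA, whereas the deposited tables hold small RNA classes. How small RNA was isolated is not given in the sources used here. Per the series' design text, BGI sequenced and filtered the reads. The tools HISAT, Bowtie2 and RSEM, and GRCh37.p13 as the build, stand in the submitters' processing notes without roles. The deposited counts are whole reads per feature, per the file headers. The authors' deposited TPM values matched counts per 1000000 reads of the library total to within 0.005 and were used for that check only. Absent names were taken as 0, and a count of 3, the limit that a 0 allows, was 0.183 to 0.260 counts per 1000000 known miRNA reads.

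Known mature names were filtered with filterByExpr (668 of 1727 left), scaled by TMM and tested with edgeR 4.0.16 (robust quasi-likelihood, Benjamini-Hochberg over all tested names), in R 4.3.3. SEs are the fold change over the root of F. Ratios used counts plus 0.5 read, and likeness log2 of CPM plus 0.5. DESeq2 1.42.0 and limma 3.58.1 were alternatives, with other scalings, filters, a block and omission of each library. Named were the members, the other arms, up to 4 names of highest level per list, names sharing a seed, precursor rows and the 5 most like names. Further list members were named after their values were seen. Members and lists were chosen with earlier results of these data known.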

Additional observations from a re-analysis of the deposited data

How the results depend on the processing

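The count of known miRNAs called was 0, and stayed 0 with other scalings, all classes, omission of miR-21-5p, a stricter filter and limma-voom. It was 9 without a filter, 4 with DESeq2 and 1 with the replicate number as a block, and 0 to 1 when a library was left out; none of the 6 cluster arms was among them (lowest adjusted p 0.419, for miR-182-5p without PRMT1 library 2), and the cause was not tested. No setting brought a member past the threshold. The log2 fold change of miR-182-5p ran from -0.48 to -0.26 over the other settings and from -0.60 to -0.20 when a library was left out, and that of miR-183-5p from -0.32 to -0.12 and from -0.30 to -0.12. That of miR-183-3p reversed, at -0.0351 with RLE, -0.028 with upper quartile, -0.0282 with DESeq2, -0.108 with all classes and -0.0065 without miR-21-5p, and ran from -0.0841 to 0.0925 when a library was left out. That of miR-96-5p reversed with limma-voom (0.0149) and the replicate block (0.012), and ran from -0.34 to 0.29 when a library was left out. Ratio differences kept their sign, from 0.08 to 0.31, 0.17 to 0.68 and 0.07 to 0.36 in the order given above, and the summed level stayed between -0.39 and -0.13. With labels exchanged within the replicate block the ratios' exact permutation p-values were 0.5, 0.75 and 0.25, the last being the smallest possible. Same-numbered libraries had correlations of deviations of -0.14, 0.18 and -0.15, within or near the -0.13 to 0.26 of other pairs, and 2 of the 6 libraries correlated best with their own number, so the numbers were not taken to pair them. For the precursor rows, omission of each library was chosen after seeing the data: the mir-183 row ran from -0.3768 to 0.0075, reversed without control library 2, the mir-96 row from 0.32 to 2.49 and the mir-182 row from -0.43 to -0.03. Of the correlations between members, 0 of 6 pairs passed on either scale. Counting error is small for the 3 guides, while miR-183-3p and the other passengers rest on at most 291 reads a library.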
